A study of Mus musculus with 2 samples.

Results

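Transcripts of 9 complement genes were followed here in bone marrow-derived macrophages (BMDMs): the C1q chains C1qa, C1qb and C1qc, the components C3, C4b, Cfb (factor B) and Cfp (properdin), and the receptors C3ar1 and C5ar1. The rule names genes by their place in the pathway and uses no measured value, but the 9 genes were chosen with earlier results of these data known. Each gene was found on the array through the RefSeq accession of its probes. All 9 genes were found, with 10 probes out of 39429 for genes, and 32448 genes or identifiers were measured in all. The study has 2 samples, both male. BMDMs from 8-week-old Crif1 f/f mice, which carry floxed Crif1 alleles and for which no Cre is named in the array methods, were grown for 7 days with M-CSF at 20 ng/ml. One culture was left untreated and the other received IL-4 for 18 h, at a dose that is not given for the arrays in the sources used here. IL-4 is the T helper 2 cytokine that drives macrophages toward the M2, or alternatively activated, state. The number of animals behind each RNA is not given either.

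The complement system is a cascade of proteins that marks microbes, immune complexes and dying cells for removal. In its classical branch C1q binds the target and switches on the proteases C1r and C1s, which cut C4 and C2. In its alternative branch factor B and factor D act on C3 itself, with properdin holding the resulting convertase together. Both branches cut C3, whose larger piece coats the target for uptake and whose smaller piece, C3a, is read by the receptor C3aR, while the later cut of C5 gives C5a, read by C5aR1. Most circulating complement comes from the liver, but macrophages make C1q and properdin and carry both anaphylatoxin receptors.

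Each RNA was labelled with Cy3 and read on 1 single-colour array, and both arrays lay on 1 slide and were scanned together. Because each condition was arrayed once, the conditions cannot be tested against each other and no p-value is given. A difference below is log2 intensity after IL-4 minus log2 intensity untreated, each array first being scaled to its own 75th percentile, and it compares these 2 RNA samples. The error given with it is an SD between spots, from the probe's own spots or from probes of similar signal printed in 10 spots, so the variation from culture to culture stays unmeasured. Fewer cells making a transcript and less transcript per cell cannot be told apart in such RNA.

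Macrophage transcripts and M2 markers were read first, as a check of the labels. Of the 9 macrophage markers found on the array, 8 were well above background on both arrays by the scanner software's flag, the exception being Cd163. Arg1, an M2 marker, had intensities of 84.9 untreated and 19688 after IL-4. Markers of other cells were present as well. All 5 fibroblast markers, led by Col1a2, passed that flag on both arrays, with a summed intensity of 327461 untreated and 319136 after IL-4, and their differences lay between -0.47 and -0.03. The 9 neutrophil markers found also passed, at a summed intensity of 40709 and 38569, most of it from S100a9 and S100a8. The differences of these markers ranged from -0.80 for Ngp to 0.30 for Mpo, with Mmp8 and Camp at -0.61 and Ltf at -0.54. T cell, B cell and dendritic cell lists had at most 2 of 5 markers well above background on an array, and Ms4a1, Cd3d and Flt3 were among those that were not. Since fibroblasts are known to make several complement proteins, among them C3 and the C1r and C1s proteases, these levels stand beside all results below, and the part of such cells in them was not tested.

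The sequences just upstream of 4 of these genes are shown because they belong to C3 and both anaphylatoxin receptors, which differed most at a clear signal, and to C1qb, which differed little. They are the 250 bases before the RefSeq start site on GRCm38.p6, written 5′ to 3′ on the coding strand, and RefSeq promoters were found for 6 of the 9 genes. Capitals mark a match to a motif searched on both strands: TTC and GAA with 4 or with 3 bases between them, the palindromes bound by STAT6 and other STAT factors, TTGCNNAA, a form bound by C/EBP factors, and GAGGAA, a core bound by PU.1, the factor of the macrophage lineage. C3 lies on chr17:57228137-57228386, minus strand, C3ar1 on chr6:122856158-122856407, minus strand, C5ar1 on chr7:16259339-16259588, minus strand, and C1qb on chr4:136886201-136886450, minus strand.
C3: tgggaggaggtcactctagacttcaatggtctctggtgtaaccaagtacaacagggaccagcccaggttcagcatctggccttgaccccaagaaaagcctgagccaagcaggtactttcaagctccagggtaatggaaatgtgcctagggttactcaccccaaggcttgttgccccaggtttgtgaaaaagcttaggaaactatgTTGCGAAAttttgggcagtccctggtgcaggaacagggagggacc
C3ar1: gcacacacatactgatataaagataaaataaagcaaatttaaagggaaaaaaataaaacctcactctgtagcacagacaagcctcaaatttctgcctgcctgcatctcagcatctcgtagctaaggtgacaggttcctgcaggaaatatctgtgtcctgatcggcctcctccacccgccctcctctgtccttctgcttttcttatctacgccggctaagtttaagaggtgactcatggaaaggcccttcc
C5ar1: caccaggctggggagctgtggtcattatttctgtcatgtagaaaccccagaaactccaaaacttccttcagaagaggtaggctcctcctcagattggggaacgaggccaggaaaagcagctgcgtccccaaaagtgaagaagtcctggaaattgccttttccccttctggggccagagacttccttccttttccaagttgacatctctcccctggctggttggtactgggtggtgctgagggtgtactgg
C1qb: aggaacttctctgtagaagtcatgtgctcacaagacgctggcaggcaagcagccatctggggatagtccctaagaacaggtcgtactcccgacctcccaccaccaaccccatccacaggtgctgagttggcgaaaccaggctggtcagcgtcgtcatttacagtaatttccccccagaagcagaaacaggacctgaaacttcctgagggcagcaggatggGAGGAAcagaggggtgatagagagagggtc

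In C3 the C/EBP form begins 45 bases before the start site, and among all 32851 promoters of this length 9.56% hold that form. In C1qb the PU.1 core begins 30 bases before the start site, and C1qc holds 1 on the other strand, in a promoter set where 23.3% hold it. Neither STAT palindrome was found in any of the 6 promoters, where 5.85% of all promoters hold the longer and 7.02% the shorter. C3ar1, C5ar1 and Cfp hold none of the 4 motifs in this window. A match describes the letters only, and its absence says nothing about sites elsewhere.

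All 9 genes were detected in both conditions, and none differed by 2-fold. C3 and its receptor C3ar1 were higher after IL-4, C5ar1 was lower, and Cfb, at a dim signal, was lower too, while the C1q chains, properdin and C4b differed little. Among all 17242 genes that passed the background flag on both arrays 3.67% reached 2-fold, 2.11% upward and 1.57% downward. At such a share, finding none among 9 genes does not set them apart. The median difference of the 9 genes was 0.04, against -0.01 for all genes on both arrays. Their differences ranged from -0.48 for C5ar1 to 0.52 for C3.

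**Figure D1:**
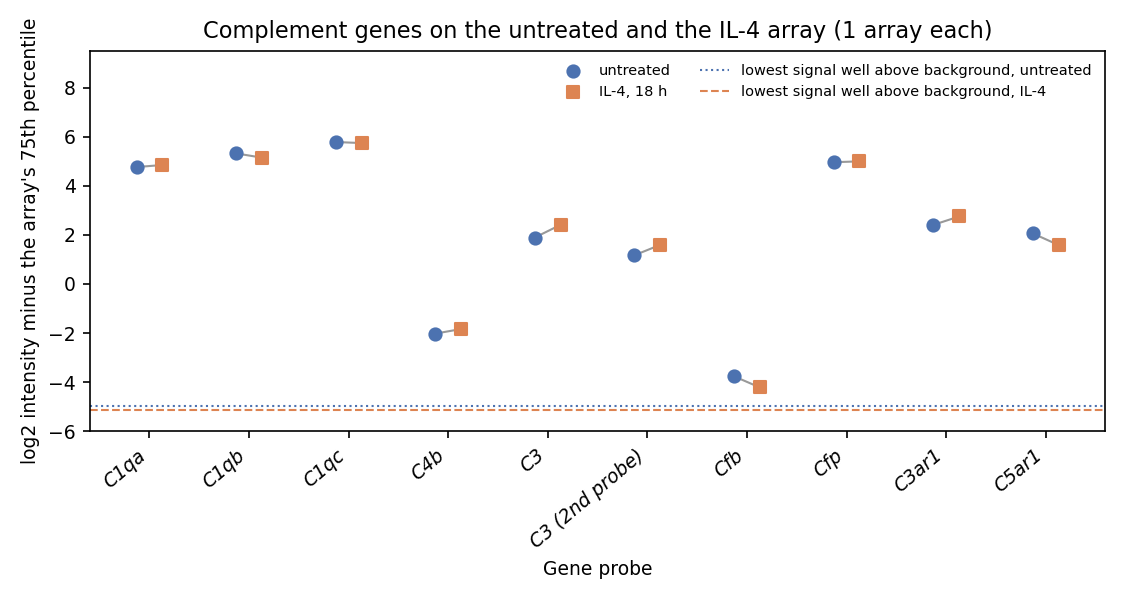
Signal of each probe of the 9 complement genes on the untreated array (circles) and the IL-4 array (squares), as log2 intensity minus the 75th percentile of the array, with the lowest signal well above background on each array as a line. Signals of different probes cannot be set against each other. Cfb and C4b lie nearest to the lines, and the largest steps are those of C3, upward, and of C5ar1 and Cfb, downward.

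C1q is built from 3 chains, encoded by neighbouring genes on chromosome 4 in the order C1qb, C1qc, C1qa. C1qa had an intensity of 24823 in untreated BMDMs and 28217 after IL-4. C1qb had 36546 and 34691. C1qc, whose probe was printed in 10 spots, had a mean of 50393 and 52383. None of these spots was saturated, and the scanner software put the error of each intensity at 10% on both arrays. After scaling, the differences were 0.09 for C1qa, -0.17 for C1qb and -0.04 for C1qc, and probes with signals like those of C1qa and C1qb had an SD between spots of 0.043. All 3 chains were thus within 1.13-fold of their untreated level, and their signs depend on the scaling, as the plot of differences shows. The gap between C1qa and C1qb, which no shift of a whole array can alter, was 0.26 log2 units.

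The spots of C1qc show the spread on each array and the smaller spread of the difference taken spot by spot. In untreated BMDMs the 10 spots lay between 47572 and 52048, and after IL-4 between 48900 and 53978. The scaled difference was negative at all 10 spots, from -0.06 to -0.03, with an SD of 0.013. The 2 sets of spots overlapped in their scaled levels. With no scaling between arrays the difference was 0.056, so the sign is set by the scaling and not by the spots.

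C3, the protein on which all branches of the cascade meet, was the gene of the 9 with the highest difference. It had 2 probes. The brighter was printed in 10 spots, of which 2 carried an outlier flag on an array and were left out of the spot-by-spot comparison. The remaining 8 spots lay between 3266 and 3500 in untreated BMDMs and between 5125 and 5308 after IL-4. Every one of these spots was higher on the IL-4 array than all of them on the untreated array. Spots repeat the reading of 1 RNA sample, and how many other repeated probes separate in this way was not counted. The difference was 0.52 with an SD between spots of 0.032, a 1.43-fold higher signal. The dimmer probe, in 1 spot, had 2060 and 2960, a difference of 0.42 where probes of similar signal had an SD of 0.053. Of all genes on both arrays, 5.6% had a difference at or above that of C3. Across the 14 alternative settings C3 stayed higher, between 0.42 and 0.86.

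**Figure D2:**
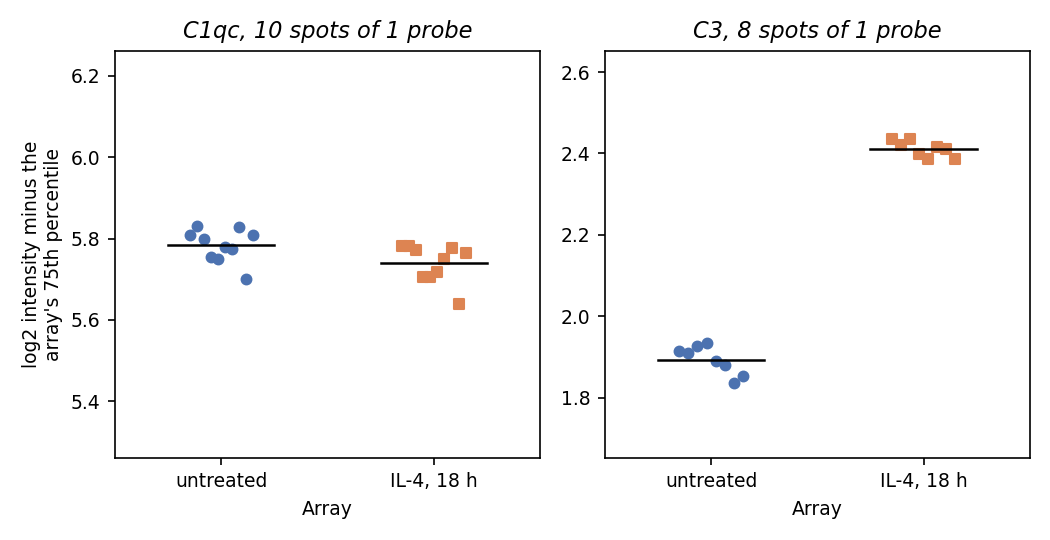
Scaled log2 intensity of each spot of the repeated probes for C1qc (10 spots) and C3 (8 spots without an outlier flag) on the untreated and the IL-4 array, with the mean as a line. Both panels span 1 log2 unit. The difference is 0.52 for C3, whose spots separate, and -0.04 for C1qc, whose spots overlap. Spots repeat the reading of 1 RNA sample per array and not the culture.

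C4b, Cfb and Cfp supply the convertases around C3. Cfp encodes properdin, and its probe read 28463 untreated and 31272 after IL-4, a difference of 0.04 that lay within the SD of 0.044 for similar probes. C4b encodes C4, and its probe read 225 and 275, a difference of 0.19 with an SD of 0.092 for similar probes. Its near-identical copy C4a, which RefSeq lists as a transcribed pseudogene, has no probe matched here, so signal from that copy in the C4b probe cannot be told apart. C4b stayed higher in all 14 alternatives, between 0.054 with normexp, another background correction, and 0.53 with spike-in scaling.

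Cfb encodes factor B, which supplies the protease of the alternative convertase. Its probe read 67.5 in untreated BMDMs and 52.8 after IL-4, where the lowest intensities well above background were 29.2 and 27.9. Cfb was therefore measured near the limit of the arrays, and the software's error was 13.6% and 15.1%. The difference was -0.46 with an SD between spots of 0.21 for similar probes. It was lower in all 14 alternatives, between -0.51 and -0.12, and 9.22% of all genes on both arrays had a difference at or below it. Relative to the median of all genes it lay at -0.44, and at -0.20 after quantile normalization.

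The anaphylatoxin receptors differed in opposite directions. C3ar1 encodes the receptor for C3a, and its intensity was 4848 untreated and 6590 after IL-4. C5ar1 encodes the main receptor for C5a, and its intensity was 3816 untreated and 2941 after IL-4. The differences were 0.34 for C3ar1, with an SD of 0.050 for similar probes, and -0.48 for C5ar1, with an SD of 0.053. The gap between the receptors was 0.82 log2 units, a 1.76-fold shift in the ratio of their signals that a shift of a whole array leaves as it is. C3ar1 stayed higher in all 14 alternatives, between 0.28 and 0.68, and C5ar1 stayed lower, between -0.53 and -0.14. Among all genes on both arrays 9.97% lay at or above C3ar1 and 8.47% at or below C5ar1. Each receptor was read from 1 probe in 1 spot, so the SD comes from other probes. The scanner software put the error of each receptor intensity at 10% on both arrays. Among the 9 neutrophil markers found, Ngp, Mmp8, Camp and Ltf lay between -0.80 and -0.54. Elane, S100a8, S100a9 and Cxcr2 lay between -0.23 and -0.04, and Mpo was at 0.30. Neutrophils also carry C5ar1, and the part of such cells in its value was not tested.

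**Figure D3:**
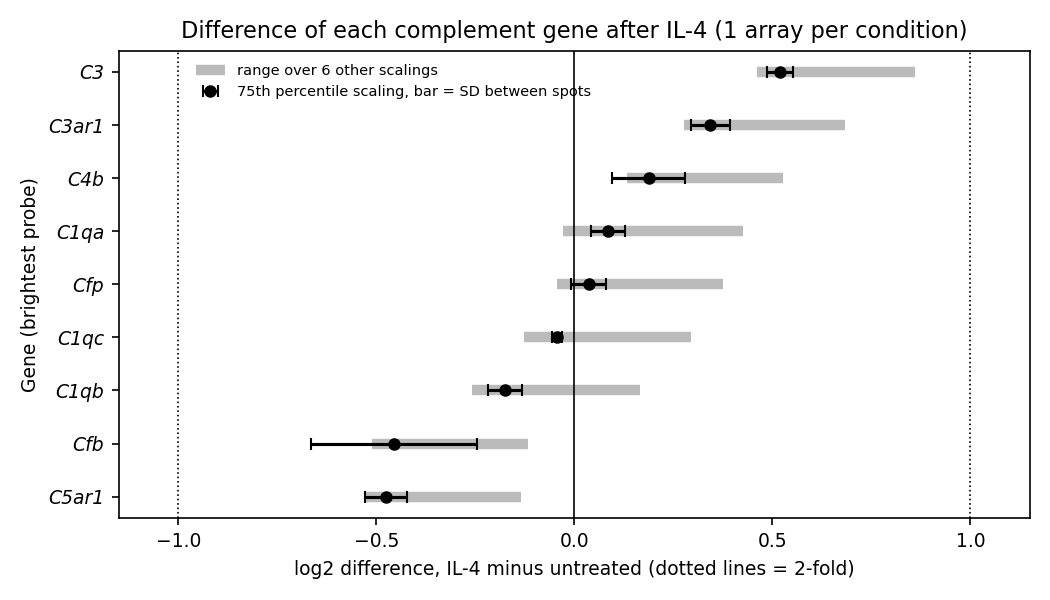
Log2 difference, IL-4 minus untreated, of each of the 9 genes at its brightest probe. Points show 75th percentile scaling, thin bars the SD between spots, and grey bars the range over 6 other scalings of the arrays. C3, C3ar1 and C4b lie above 0 and C5ar1 and Cfb below 0 over the whole grey range, and no grey bar reaches the dotted lines at 2-fold.

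At a smaller threshold of 1.25-fold, chosen after the values were seen, C3 and C3ar1 were past it upward, C5ar1 and Cfb downward, and 5 genes lay within it. Over all genes on both arrays 26.4% were past 1.25-fold, 10.9% upward and 15.5% downward. C3ar1, at 1.27-fold, was the gene that passed by the least, and C4b, at 1.14-fold, came nearest without passing.

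The rest of the complement system was read from a list of 56 genes that includes the 9. Of these, 55 had a probe. The background flag was passed on both arrays by 35 genes, on neither by 18, and on 1 array only by Mbl1 and Cd59b. Past 1.25-fold, 6 of the 35 were higher with IL-4 and 8 were lower, which left 21 within that range. Their median difference was -0.04. At 2-fold, 1 of the 37 genes that passed the flag on an array was lower and none higher. Among all 19743 such genes 7.33% reached 2-fold, 4.47% downward and 2.86% upward, and the list was not tested against that share.

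That gene was Cd93, a receptor of myeloid and endothelial cells once taken for a C1q receptor and known for a part in the uptake of dying cells. Its intensity was 26790 in untreated BMDMs and 12554 after IL-4. The difference was -1.19, with an SD of 0.052 for similar probes, or 2.29-fold lower. It kept its sign in all 14 alternatives, between -1.28 and -0.85, and fell short of 2-fold with median and spike-in scaling. Only 0.882% of all genes on both arrays lay at or below it.

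The proteases that work with C1q differed little. C1ra, which encodes C1r, read 1033 untreated and 1080 after IL-4 at its brighter probe, a difference of -0.04 after scaling, and -0.10 at its other probe. C1s1, which encodes C1s, had a difference of 0.07, and C1s2, a rodent copy of it, had 0.21 at the brighter of its probes, while the other probe was below the background limit on both arrays. C1rb, a rodent copy of C1r, had -0.05. Serping1, the inhibitor that removes C1r and C1s from C1q, had 0.01 and -0.02 at its pair of probes. Among these partners of C1q, C1s2 had the largest difference, and its spot error was 0.061.

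The partners of C3 gave 1 higher and 1 nearly level value at dim signal. Cfd encodes factor D, the protease that cuts factor B, and it read 35.4 untreated and 68.3 after IL-4, and its difference was 0.85 (spot SD 0.23), where 2.75% of genes on both arrays lay at or above it. With normexp, which started from raw median pixel intensities and added an offset of 50, it was 0.11. C2, the classical partner of C4 and the neighbour of Cfb on chromosome 17, read 42.8 and 50.9, a difference of 0.15 (spot SD 0.23), and it turned to -0.22 in 1 of the 14 alternatives.

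Regulators that protect the cell surface or clear the convertase included Cr1l, Cd59a and Clu. Cr1l encodes Crry, the main membrane regulator of rodents, and read 5616 and 6332, a difference of 0.07. Cd59a, an inhibitor of the membrane pore, read 470 and 424, a difference of -0.25. Of 14 regulators on the array, 6 were well above background on both arrays, and Clu, which encodes clusterin, was the only one of these past 1.25-fold, at -0.33, which became 0.011 with spike-in scaling. Cfi, which encodes factor I, was among the 7 that were below the limit on both arrays.

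Transcripts of the terminal pathway, which forms the pore in the target membrane, were largely undetected. Hc, the mouse gene of C5, and C6, C7, C8a, C8b and C9 were below the limit on both arrays, 6 of 7 genes in all. C8g, the remaining one, was at -0.30, and similar probes had an SD of 0.13. The transcript of C5, the precursor of the ligand of C5ar1, was therefore not detectable at the sensitivity of these arrays.

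All 12 genes of receptors and binding proteins were well above background on both arrays. At 1.25-fold 3 of them were higher and 5 lower, where 10.9% of all genes on both arrays were higher and 15.5% lower. C5ar2, the second C5a receptor and the neighbour of C5ar1 on chromosome 7, read 1017 untreated and 708 after IL-4 at its brighter probe, a difference of -0.62. Its other probe gave -0.40, so both C5a receptors were lower at every probe, and 4.95% of genes on both arrays lay at or below C5ar2. The gap between C5ar1 and C5ar2 was 0.15 log2 units.

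The integrins that bind the surface fragments of C3 share the chain Itgb2 and differ in the other chain. Itgb2 read 10522 and 10780, a difference of -0.06 whose sign also depended on the scaling. Itgax, the chain of complement receptor 4, read 14856 untreated and 26198 after IL-4, a difference of 0.72 (spot SD 0.045), where 3.55% of genes lay at or above it. Itgam, the chain of complement receptor 3, read 8399 and 5518 at its brightest probe, a difference of -0.71 (spot SD 0.049), where 3.82% of genes lay at or below it. Its other probes gave -0.24 and -0.27, so the direction was shared and the size was not. At the brightest probes the Itgax to Itgam gap was 1.42 log2 units. Itgam is also in the macrophage marker list, in which Cd14 was at -1.42, Csf1r at 0.09 and Adgre1 at 0.17, and whose 9 genes on the array, Cd163 included, had a summed intensity of 301589 untreated and 280286 after IL-4. The part of macrophages or neutrophils, which also carry this integrin, in the Itgam value was not tested.

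**Figure D4:**
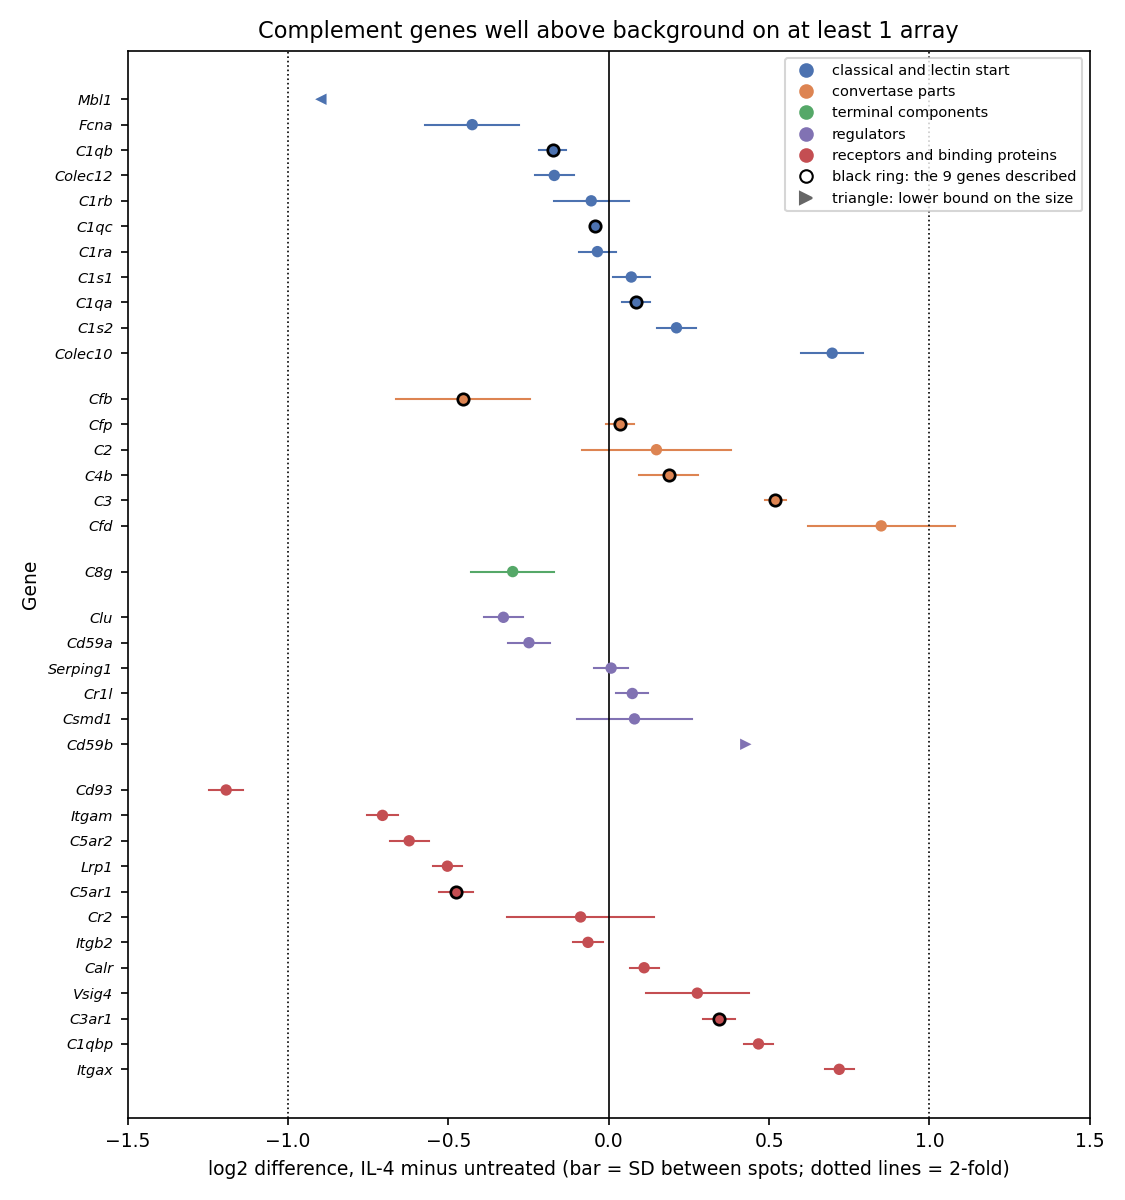
Log2 difference, IL-4 minus untreated, of complement genes that passed the background flag on an array, grouped by role. Circles are measured on both arrays, with the SD between spots as a bar, triangles are bounds, and black rings mark the 9 genes described above. Cd93 is the gene beyond the dotted 2-fold lines. Among circles the receptors run from -1.19 to 0.72 and the convertase parts from -0.46 to 0.85. The classical and lectin genes run from -0.43 to 0.70, with the 3 C1q chains near 0.

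Among the other receptors, C1qbp, a mitochondrial protein that binds C1q, had a difference of 0.47, and Lrp1, a large endocytic receptor that works with surface calreticulin, had -0.50. Vsig4, the complement receptor of tissue macrophages, read 83.8 and 109, and its difference was 0.28 where similar probes had an SD of 0.16. Colec10, a soluble lectin of the lectin branch, had 0.70, and 0.35 with normexp. Mbl1, another lectin of that branch, was well above background in untreated BMDMs only, at 48.5, and was at least 1.86-fold lower after IL-4.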

How the data were processed

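Processed files of 2 samples were used, 1 untreated and 1 IL-4, grouped by their labels. As deposited by the authors, the scanner files come from Feature Extraction 10.10.1.1 and give an intensity per spot after background subtraction and spatial detrending, beside other quality flags, with no scaling between arrays. A table of log2 values was deposited too, and how it was made is not given in the sources used here. For 39422 of 39424 probes its difference between arrays lay within 0.01 of the scanner difference after a shared offset, so its direction is known, while its columns have medians of 0.16 and 0.016 and their centring is unknown.

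Outlier-flagged and control spots were dropped, spots of 1 probe were averaged as log2 intensity, and each array was scaled by subtracting its 75th percentile over probes. Detrended intensities keep array-wide differences in labelling, so each sign near 0 depends on the scaling. A probe counted as well above background when most of its spots carried the flag. A gene was read from its brightest probe, and other probes are given where they exist. Where only 1 array was well above background the fold is a bound against the dim array's own reading or its detection floor, whichever is higher, the floor being the lowest signal with the flag, and where neither was no fold is given. Of the probes, 27229 were named through RefSeq accessions of GRCm38.p6. The array design was annotated on mm9, so no gene coordinates are given, and the promoter coordinates are those of the RefSeq table.

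The named genes were the 9 members with every probe, genes of the complement list at least 2-fold different, and the direct partners of members, of which 1 is not reported here by name or in the figures though the counts include it. Other genes named with values, such as Colec10, Mbl1, C8g, Cd59a, Clu, C1qbp, Lrp1 and Vsig4, fall outside that rule and were chosen after their values were seen. The members and lists were chosen with earlier results of these data known, as was the 1.25-fold threshold. Fibroblast, neutrophil, eosinophil, mast cell, T cell, B cell, dendritic cell and macrophage markers were read as lists. Eosinophil markers were well above background for 4 of 5 on both arrays at a summed intensity of 962 and 1067, and mast cell markers for 3 of 5 and 2 of 5. Retnla, Chil3 and Mrc1, the other checks of the IL-4 response, were at least 595-fold, 14.2-fold and 5.33-fold higher. The spot error was the SD of the difference over spots, 0.065 at the median of 259 probes printed in 10 spots. Counting was tested on simulated data with 39424 probes, where all 200 probes made 4-fold different were recovered and 0 others were called. The changed probes were well above background and not dim, and the noise was 0.1 log2 units. This checks the counting steps only, and smaller differences or dim probes were not simulated. Precision is limited by the number of arrays. The tools were limma 3.58.1 in R 4.3.3, and pandas 2.3.3 with numpy 2.4.6 in Python 3.11.15.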

Additional observations from a re-analysis of the deposited data

How the results depend on the processing

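No paired analysis was possible because neither condition was arrayed more than once. None of the 9 genes reached 2-fold under any alternative run. With the scaling of the main results none reached 1.5-fold or 3-fold either. At 1.25-fold, chosen after seeing the data, 2 were higher and 2 lower with that scaling. Under other scalings C3 passed 1.5-fold upward, at 0.73 with median, 0.62 with no and 0.86 with spike-in scaling. C3ar1 passed 1.5-fold upward with spike-in scaling, at 0.68. Normexp started from median pixel intensities, the raw foreground that the scanner files hold. The spike-in scaling used 8 control probes.

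Whole-array shifts move all genes together. The median difference over all genes was 0.20 with median scaling and 0.32 with spike-in scaling, against -0.01 with the 75th percentile. The median of the 9 genes, at 0.036, moved to 0.25 with median scaling, -0.045 with quantile normalization, 0.14 with no scaling and 0.38 with spike-in scaling. The median of the wider complement list, at -0.04, moved to 0.18, 0.064 and 0.30 with median, no and spike-in scaling. C1qb turned to 0.039 with median and 0.16 with spike-in scaling, C1qc to 0.17, 0.056 and 0.30 with median, no and spike-in scaling, and C1qa to -0.027 with quantile normalization. Cfp, whose difference lay within its spot SD, turned to -0.045, -0.014 and -0.019 with quantile normalization, cyclic loess and the 75th percentile over flagged probes, and the sign of C1ra, C1rb, Serping1 and C2, also within their spot SD, turned as well under some alternatives. Itgb2 turned to 0.15, 0.035, 0.27 and 0.017 with median, no and spike-in scaling and normexp, and Clu to 0.011 with spike-in scaling.

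Of the wider list, 0 genes were at least 2-fold higher and 1 lower. The higher count was 1 with median scaling, quantile normalization, cyclic loess, the processed table, no filter on dim probes and a filter on positive and significant signal, chosen after seeing the data, and 3 with spike-in scaling. The lower count was 0 with median and spike-in scaling and 4 with the processed table, no filter and that added filter. With median scaling, quantile normalization and cyclic loess the higher gene was Cfd. With no filter on dim probes it was Masp2, at 1.77, which was below the limit on both arrays. Hc, at -1.21, and C7, at -1.77, were also below that limit on both arrays and were among the 4 lower genes with no filter. With the scaling and filter of the main results, counts were 7 higher and 9 lower at 1.25-fold, bounds included, 3 and 4 at 1.5-fold, and 0 lower at 3-fold. The share of all genes was not counted under the alternative settings, nor at these thresholds with bounds included. The counts therefore describe the list alone and do not set it apart from other genes. The cause was not tested beyond the construction of each setting. Signal near background limits the precision of dim genes such as Cfb, C2, Cfd and Mbl1.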
